A study of Mus musculus with 8 samples.

Results

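Caudal neurectoderm was taken as every cell to which the combined atlas annotation of the deposited cell table gives that name. It held 216 of 28723 cells, or 0.752%, of which 99 were Eomes-KO and 117 were WT host. The study injected tdTomato+ embryonic stem cells (ESC) lacking Eomes into WT blastocysts and collected the chimeric embryos at around E8.5. Whole embryos were pooled, approximately 4 to a tube, dissociated, and sorted by tdTomato, a red fluorescent protein that only the injected cells carry. The tdTomato+ cells were Eomes-KO and came from 4 independent ESC clones of a male line, each with a CRISPR deletion in Eomes and each used for 1 pool. The tdTomato− cells of the same embryos were the WT host, of C57BL/6 blastocysts. No library of injected WT ESC was analysed, so the loss of Eomes and an ESC origin cannot be told apart in any comparison below.

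Neurectoderm is the part of the ectoderm that forms the neural plate. Its caudal portion lies next to the caudal epiblast and to neuromesodermal progenitors (NMPs), a population that feeds both the spinal cord and the paraxial mesoderm, while its rostral portion gives rise to the brain. Sox2 and Sox1 encode transcription factors of the neural plate, Hoxb1 is a Hox gene of posterior identity, and Nkx1-2 marks the caudal epiblast and the adjoining preneural tube. Eomes encodes a T-box factor that epiblast cells need to form definitive endoderm and anterior mesoderm. The table analysed here gives labels and quality measures cell by cell but not the counts of any gene, so the name could not be checked against Sox2, Sox1, Hoxb1 or Nkx1-2.

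The 4 Eomes-KO libraries held 602, 1153, 3346 and 3465 cells, and the 4 WT host libraries held 2414, 3791, 5819 and 8133. Libraries are named here by these totals. The WT host library of 3791 cells had 6 caudal neurectoderm cells, the fewest, and the Eomes-KO library of 602 cells had the highest median number of UMIs per cell. The study's text counts more retained cells of each genotype than the table analysed here holds, and every share below rests on the table. In all, 80 cell barcodes occurred in 2 libraries, and 0 of the 216 caudal neurectoderm cells carried one of them.

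The first question was whether Eomes-KO cells contributed to caudal neurectoderm as often as host cells did. Every library of both genotypes held cells of the type, and the shares varied. Caudal neurectoderm was 2.66% of epiblast-derived cells in the Eomes-KO library of 602 cells (16 of 601), 1.57% in that of 1153 (18 of 1150), 0.538% in that of 3346 (18 of 3345) and 1.36% in that of 3465 (47 of 3465). In the WT host libraries it was 0.71% in that of 2414 cells (17 of 2395), 0.16% in that of 3791 (6 of 3758), 0.893% in that of 5819 (46 of 5153) and 0.602% in that of 8133 (48 of 7978). Of the Eomes-KO libraries, 3 lay above all WT host libraries and that of 3346 cells lay among them, so the groups overlapped. The means were 1.53% ± 0.875 (SD, n = 4 libraries) for Eomes-KO and 0.591% ± 0.312 (SD, n = 4 libraries) for WT host.

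These shares rest on few cells. The exact 95% Clopper-Pearson interval ran from 1.53% to 4.29% in the Eomes-KO library of 602 cells and from 0.0586% to 0.347% in the WT host library of 3791 cells. Such intervals cover counting error only. In edgeR's quasi-likelihood test over all types with at least 10 cells, the log2 fold change of caudal neurectoderm, Eomes-KO over WT host, was 1.27 (SE 0.58), with a p of 0.043 and a Benjamini-Hochberg adjusted p of 0.06, which did not pass 0.05. Of the 33 types tested, 23 (69.7%) passed, 7 of them higher in Eomes-KO (21.2%) and 16 lower (48.5%). Caudal neurectoderm had the 8th highest log2 fold change of the 33, and the median over the 33 types was -1.95. A share that is higher because the type has more cells and one that is higher because other types have fewer cannot be told apart in such data.

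**Figure D1:**
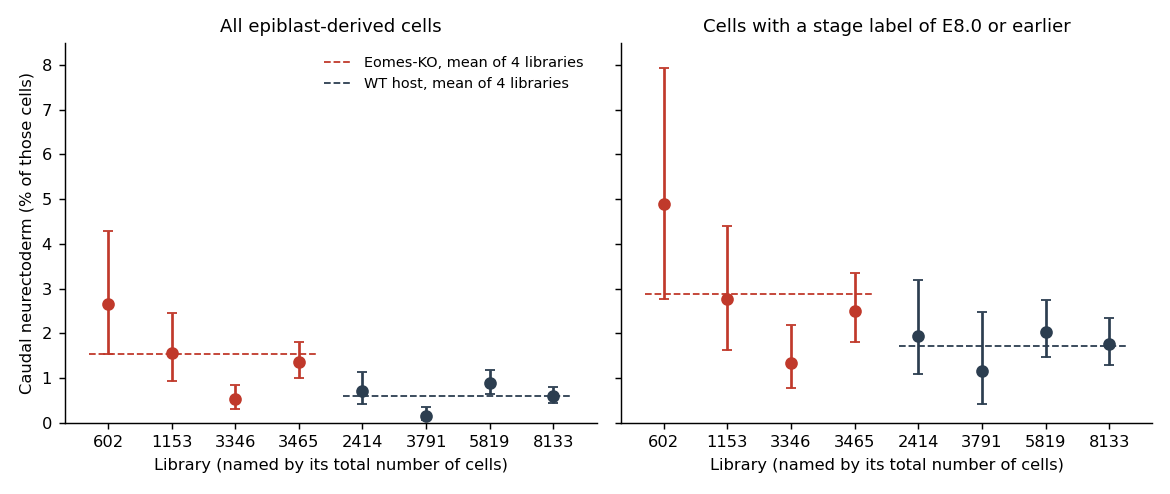
Caudal neurectoderm as a percentage of the epiblast-derived cells of each of the 8 libraries (left) and of those with an atlas stage label of E8.0 or earlier (right); points are libraries, bars are exact 95% Clopper-Pearson intervals and dashed lines are means of 4 libraries. In the left panel 3 Eomes-KO libraries lie above all WT host libraries, and in the right panel the Eomes-KO mean is 2.88% and the WT host mean 1.72%.

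Which libraries and scaling were used decided the call. Without the Eomes-KO library of 3346 cells the log2 fold change was 1.59 (edgeR adjusted p = 0.017), and without the WT host library of 5819 cells it was 1.55 (edgeR adjusted p = 0.039). It was 0.92 (edgeR adjusted p = 0.17) without the Eomes-KO library of 602 cells. DESeq2 gave 1.78 (adjusted p = 0.00076) with poscounts size factors and 0.36 (adjusted p = 0.5) with ratio size factors, while the distance of caudal neurectoderm above the median type was 3.03 and 3.20 on the log2 scale, close to the 3.22 of the edgeR fit. The direction was higher in Eomes-KO under all of these settings.

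Early atlas stages were more frequent in Eomes-KO libraries in the mean, although the groups overlapped and no test was run. Among epiblast-derived cells, those with a stage label of E8.0 or earlier were 35.5% to 53.2% of an Eomes-KO library and 13.9% to 39.05% of a WT host library. The means were 47.1% for Eomes-KO and 29.3% for WT host. At E8.0 alone the groups did not overlap. Among epiblast-derived cells other than caudal neurectoderm, E8.0 was 30.9% to 43.4% of an Eomes-KO library and 9.99% to 28.3% of a WT host library. At E7.5 and E7.75 they overlapped, and the E7.75 mean was lower in Eomes-KO (6.24% against 7.67%). Caudal neurectoderm is an early label in itself, with 91.2% of its cells at E8.0 or earlier. Counted only among such early cells, caudal neurectoderm was 4.89%, 2.78%, 1.35% and 2.50% of the Eomes-KO libraries of 602, 1153, 3346 and 3465 cells. In the WT host libraries of 2414, 3791, 5819 and 8133 cells it was 1.95%, 1.15%, 2.04% and 1.76% of them. The Eomes-KO library of 3346 cells lay among the WT host libraries, and the groups overlapped again. The log2 fold change among early cells was 0.60 (edgeR adjusted p = 0.25), so the difference was smaller when stage was held to E8.0 or earlier. This setting was chosen after the data were seen.

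Caudal neurectoderm was next set against the 5 types that adjoin it in the embryo or in development. In the atlas these are rostral neurectoderm, spinal cord, the joint label of forebrain, midbrain and hindbrain, NMPs and caudal epiblast. Set against spinal cord or brain, it took a larger ratio in each Eomes-KO library than in any WT host library, although the adjusted p did not pass 0.05 for either. The Eomes-KO libraries of 602, 1153, 3346 and 3465 cells had 61.5, 56.2, 31.0 and 42.0 caudal neurectoderm cells per 100 spinal cord cells. The WT host libraries of 2414, 3791, 5819 and 8133 cells had 20.5, 4.05, 19.5 and 15.7. Every Eomes-KO library lay above every WT host library, with a difference of 1.84 in the mean log2 ratio (exact permutation p = 0.029, the smallest that 4 against 4 libraries allow, and 0.071 adjusted over the 5 neighbours, two-sided). With only spinal cord and brain at that smallest p, neither adjusted p could pass 0.05.

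The same was seen against forebrain, midbrain and hindbrain, with 66.7, 66.7, 14.2 and 35.3 cells per 100 for Eomes-KO and 6.25, 1.13, 10.2 and 5.97 for WT host, in the same order of libraries. The groups did not overlap here either, and the mean log2 ratio differed by 3.06 (exact permutation p = 0.029, adjusted p = 0.071). That brain label is itself lower in Eomes-KO, with a log2 fold change of -1.66 (edgeR adjusted p = 0.00014) and 311 Eomes-KO against 2060 WT host cells, and with stage held to E8.0 or earlier it was -0.40 and did not pass (edgeR adjusted p = 0.54). Spinal cord had -0.42 (edgeR adjusted p = 0.29).

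Against the other 3 neighbours the groups overlapped. Per 100 rostral neurectoderm cells there were 45.7, 64.3, 41.9 and 19.3 caudal neurectoderm cells for Eomes-KO and 19.3, 16.2, 20.4 and 13.6 for WT host. The difference of 1.17 in mean log2 ratio did not pass (exact permutation p = 0.086, adjusted p = 0.14). Per 100 caudal epiblast cells the range was 10.8 to 32.7 in Eomes-KO and 21.8 to 31.0 in WT host, and the mean log2 ratio differed by -0.29 (exact permutation adjusted p = 0.66). Caudal epiblast was itself higher in Eomes-KO, at 1.41 (edgeR adjusted p = 0.013), a call that was lost with DESeq2 ratio size factors (0.56, adjusted p = 0.22) and without the WT host library of 8133 cells (1.35, edgeR adjusted p = 0.057). Per 100 NMPs the libraries ran from 9.52 to 76.2 in Eomes-KO and from 2.90 to 41.1 in WT host (log2 difference 1.23, exact permutation adjusted p = 0.43).

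**Figure D2:**
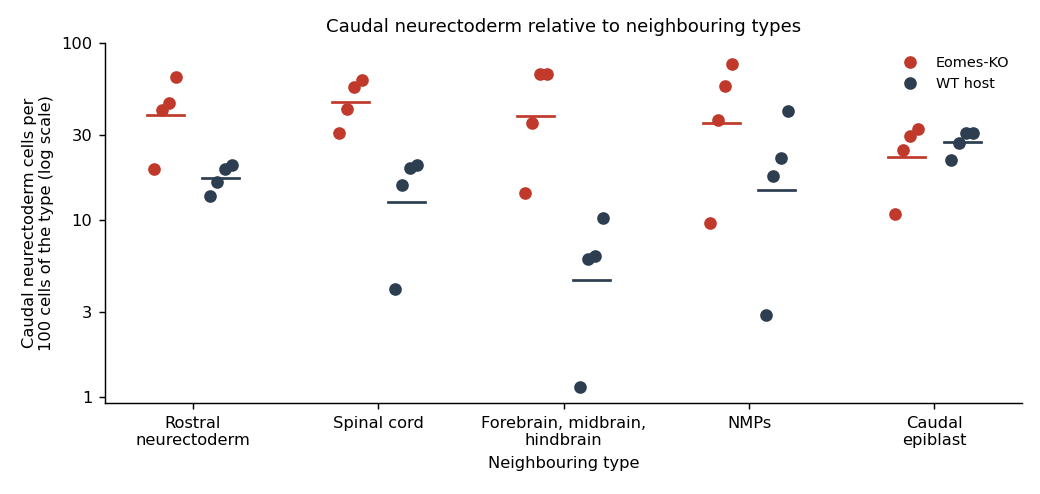
Caudal neurectoderm cells per 100 cells of each of 5 neighbouring types, on a log scale; each point is 1 library and each line is the geometric mean of 4. The genotypes do not overlap for spinal cord or for forebrain, midbrain and hindbrain, and they overlap for the other 3 types.

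These ratios also moved with stage. With both types limited to cells at E8.0 or earlier, the log2 difference against spinal cord went from 1.84 to -0.12 (exact permutation adjusted p = 0.94) and that against NMPs from 1.23 to -0.88 (adjusted p = 0.57, exact permutation). Against forebrain, midbrain and hindbrain it was 1.36 and against rostral neurectoderm 0.91, both higher in Eomes-KO and neither past the threshold (exact permutation adjusted p = 0.33 and 0.29). Spinal cord cells at E8.0 or earlier made up 37.7% of the type in Eomes-KO cells and 10.8% in WT host cells.

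The atlas has a second, extended annotation with finer names, and caudal neurectoderm has no entry of its own in it. All 216 cells fell under 2 extended labels, which was 1 label under the original annotation. Ectoderm was given to 181 cells (83.8%) and Caudal epiblast to 35 (16.2%). Ectoderm is a broad name in these data. Of the 2375 cells that carry it, 998 (42%) are rostral neurectoderm, 753 (31.7%) forebrain, midbrain or hindbrain, 432 (18.2%) spinal cord and 181 (7.62%) caudal neurectoderm.

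The split between the 2 names did not separate the genotypes. The Ectoderm share was 81.2%, 66.7%, 94.4% and 89.4% in the Eomes-KO libraries of 602, 1153, 3346 and 3465 cells. It was 76.5%, 66.7%, 84.8% and 85.4% in the WT host libraries of 2414, 3791, 5819 and 8133 cells. The groups overlapped throughout, with means of 82.9% ± 12.1 (SD, n = 4 libraries) and 78.3% ± 8.78 (SD, n = 4 libraries), and the difference of 4.6 percentage points did not pass (exact permutation p = 0.57). With 6 to 48 cells in a library the exact 95% intervals are wide, from 22.3% to 95.7% for the 4 of 6 cells of the WT host library of 3791 cells.

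Read the other way, caudal neurectoderm took a larger part of the Ectoderm-labelled cells in every Eomes-KO library. It was 18.3%, 19.0%, 11.04% and 9.42% of these cells for Eomes-KO and 6.05%, 1.92%, 7.66% and 5.78% for WT host, in the order of libraries used above. The lowest Eomes-KO library lay above the highest WT host library. This ratio was chosen after the data were seen and was not tested. It was not limited by stage, and its denominator includes cells of the brain label, which was itself lower in Eomes-KO.

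The cells under the 2 extended names differed in other respects. The mean extended label score, defined as how large a part of the 15 nearest atlas cells bears the name, from 0 to 1, was 0.845 ± 0.0429 (SD, n = 8 libraries) for the Ectoderm cells and 0.639 ± 0.0619 (SD, n = 8 libraries) for the Caudal epiblast cells. It was lower for Caudal epiblast cells in 8 of 8 libraries. A score of 1, with every nearest atlas cell carrying the name, was reached by 51 Ectoderm cells and by 0 Caudal epiblast cells. All 19 caudal neurectoderm cells with a stage label of E8.25 were Ectoderm, and 0 of the 35 Caudal epiblast cells had that stage, which allows a share of up to 8.57%.

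Caudal neurectoderm had low label scores under the original annotation. Its original label score, the fraction of the 15 nearest atlas cells labelled caudal neurectoderm, had a median of 0.533, or 8 of 15 cells. Of the 216 cells, 70 (32.4%) scored under 0.5, compared with 841 of all 28723 cells (2.93%). A score of 1 was reached by 0 of the 216 cells, which allows a share of up to 1.39%, while 44.5% of all cells had it. By mean score, 0.577, it came second from the bottom of the types with at least 10 cells, after nascent mesoderm, a type of 11 cells. The most frequent value was 0.533, in 47 cells, and the scores ran from 0.2 to 0.933.

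The low score was found in each library. The median was 0.667, 0.533, 0.533 and 0.533 in the Eomes-KO libraries of 602, 1153, 3346 and 3465 cells. It was 0.533, 0.533, 0.567 and 0.533 in the WT host libraries of 2414, 3791, 5819 and 8133 cells. The other epiblast-derived cells of these libraries had medians from 0.867 to 0.933, above caudal neurectoderm in 8 of 8 libraries. The mean difference was -0.354 (exact sign-flip permutation p = 0.0078, the smallest that 8 libraries allow, two-sided). Among types with at least 5 cells in a library, caudal neurectoderm had the lowest mean score in 7 of 8 libraries, and in the WT host library of 8133 cells it came after the 7 nascent mesoderm cells. Score and label come from the same nearest atlas cells, and the low scores of this type were known before the test. The p-value therefore describes how the label was given and is neither a separate measurement nor separate support.

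The difference between genotypes was within the spread between libraries. The library medians averaged 0.567 ± 0.0667 (SD, n = 4) for Eomes-KO, against 0.542 ± 0.0167 (SD, n = 4) for WT host (exact permutation p = 1). Cells under 0.5 made up 18.8%, 44.4%, 33.3% and 25.5% of caudal neurectoderm for Eomes-KO and 41.2%, 16.7%, 34.8% and 35.4% for WT host, so the groups overlapped. With cells under 0.5 left out, the abundance difference between genotypes was 1.40 on the log2 scale (edgeR adjusted p = 0.046).

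The extended label score was higher than the original one for most of these cells. Its library medians were 0.867, 0.833, 0.833 and 0.867 in Eomes-KO and 0.8, 0.7, 0.9 and 0.9 in WT host, with overlapping groups (exact permutation p = 0.83, adjusted p = 1 over the 2 scores). The extended score exceeded the original score in 176 of the 216 cells (81.5%) and fell below it in 23. On average it was higher by 0.247, the widest gain of any type with at least 10 cells. The 2 scores refer to names of unlike breadth, as Ectoderm also covers rostral neurectoderm, spinal cord and brain. A higher extended score is therefore not a measure of a better identified cell. Beside its neighbours, caudal neurectoderm had a mean original score of 0.574 ± 0.0426 (SD, n = 8 libraries), against 0.776 for caudal epiblast, 0.805 for rostral neurectoderm, 0.809 for spinal cord, 0.86 for NMPs and 0.888 for forebrain, midbrain and hindbrain, and it was lower than each of them in 8 of 8 libraries. Its mean extended score of 0.808 ± 0.0363 (SD, n = 8 libraries) lay between the 0.619 of NMPs and the 0.9 of caudal epiblast.

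**Figure D3:**
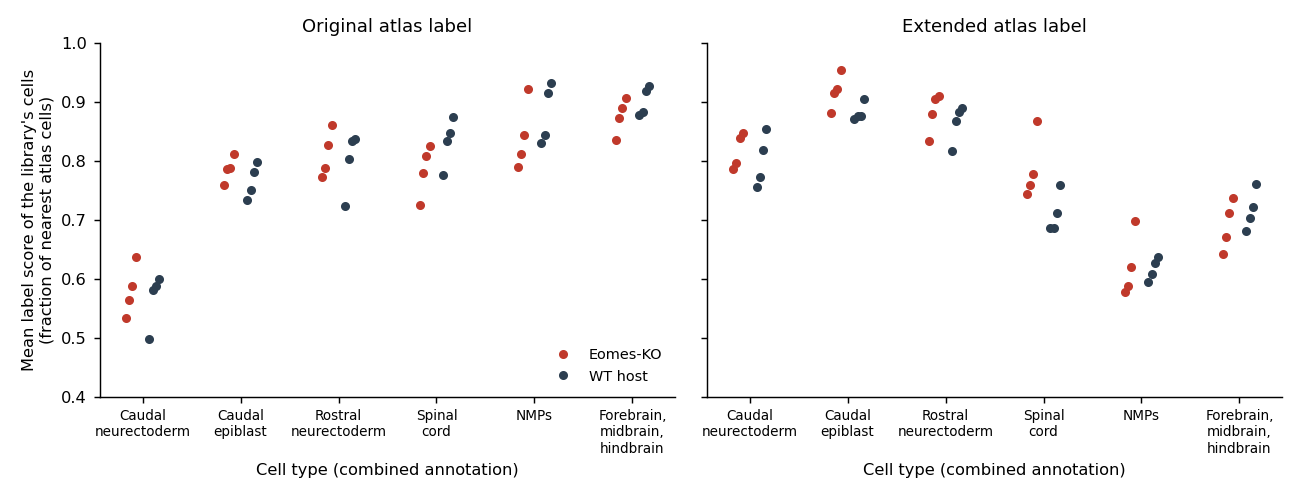
Mean label score per library (the fraction of nearest atlas cells with the label, axis from 0.4 to 1) of caudal neurectoderm and 5 neighbouring types, under the original (left) and the extended (right) atlas annotation; points are libraries. Caudal neurectoderm is the lowest of the 6 under the original labels, with a mean of 0.574, and lies within the range of the others under the extended labels, with a mean of 0.808.

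The nearest atlas cells of caudal neurectoderm were mostly used once. The 216 cells had 184 different closest atlas cells, of which 157 were the closest for 1 caudal neurectoderm cell only, and 13 were reached from both genotypes. The same atlas cells were the closest match of 139 cells with other labels, and 98 of these were spinal cord. Forebrain, midbrain and hindbrain had 16, caudal epiblast 15 and rostral neurectoderm 8. The 98 were 9.8% of all spinal cord cells. They comprised 41 of the 228 Eomes-KO spinal cord cells (18%) and 57 of the 772 WT host ones (7.38%), counted over pooled cells and given without a test.

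By atlas stage, caudal neurectoderm was mostly E8.0 in both genotypes. Of its cells 178 (82.4%) had that label, 19 were E7.75, 19 were E8.25, and 0 were E7.5 or E8.5. The E8.0 share was 87.5%, 88.9%, 88.9% and 74.5% in the Eomes-KO libraries of 602, 1153, 3346 and 3465 cells and 76.5%, 83.3%, 80.4% and 87.5% in the WT host libraries of 2414, 3791, 5819 and 8133 cells. The groups overlapped, with means of 84.9% ± 7.01 (SD, n = 4 libraries) and 81.9% ± 4.66 (SD, n = 4 libraries), and the difference did not pass the exact permutation test (p = 0.57, adjusted p = 0.86 over the 3 stages). The E7.75 share averaged 6.67% in Eomes-KO and 10.8% in WT host, and the E8.25 share 8.39% and 7.22% (exact permutation adjusted p = 0.86 for both).

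The other epiblast-derived cells were spread over all 5 stages. In Eomes-KO they were 0.863% E7.5, 5.54% E7.75, 37.3% E8.0, 37.7% E8.25 and 18.5% E8.5. In WT host they were 0.683% E7.5, 7.54% E7.75, 21.8% E8.0, 41.4% E8.25 and 28.6% E8.5. In the mean over libraries, 83.4% of caudal neurectoderm was E8.0, above spinal cord (22%), rostral neurectoderm (54.8%), NMPs (3.51%) and forebrain, midbrain and hindbrain (1.77%) in 8 of 8 libraries. Caudal epiblast, at 77.2%, was lower in 6 of 8 libraries and higher in 2. The stage follows in part from which atlas cells bear the caudal neurectoderm label, so these contrasts with other types carry no test.

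**Figure D4:**
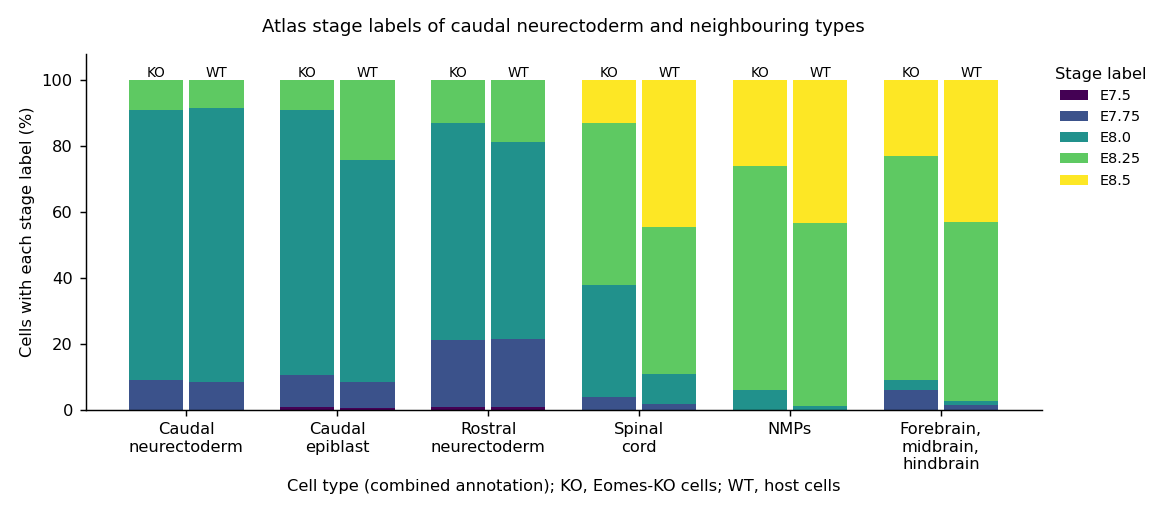
Percentage of cells with each atlas stage label in caudal neurectoderm and 5 neighbouring types, as stacked bars of pooled cells by genotype. Caudal neurectoderm is 81.8% E8.0 in Eomes-KO and 82.9% in WT host, while spinal cord is 33.8% and 8.94%.

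Within caudal neurectoderm the cells at E8.25 had the lowest original scores. The 19 cells at E8.25 had a mean original label score of 0.47, compared with 0.587 for the 178 at E8.0 and 0.586 for the 19 at E7.75. Of the E8.25 cells 11 (57.9%) scored under 0.5, compared with 29.8% of the E8.0 cells. Their mean extended score of 0.919 was instead the highest of the 3 stages, and that of the E8.0 cells was 0.811. These are pooled cells of all libraries and are given without a test.

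Quality measures were compared between genotypes and with the other cells of each library. The median number of UMIs (molecules counted by their identifier) per caudal neurectoderm cell came to 38939, 22571.5, 16805.5 and 8974 for the Eomes-KO libraries of 602, 1153, 3346 and 3465 cells. In the WT host libraries of 2414, 3791, 5819 and 8133 cells it was 8777, 11092, 10257.5 and 5036. The Eomes-KO library of 3465 cells lay within the WT host range, and the means of 21822.5 and 8791 did not pass the exact permutation test (p = 0.086, adjusted p = 0.29 over 5 measures). The medians of the other epiblast-derived cells were 32532, 19196, 16992 and 8901 in Eomes-KO and 8352, 10738.5, 10832 and 5106 in WT host. Relative to them caudal neurectoderm differed by 0.122 ± 0.144 (SD, n = 4 libraries) on the log2 scale for Eomes-KO, and by 0.00496 ± 0.0678 (SD, n = 4 libraries) for WT host.

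**Figure D5:**
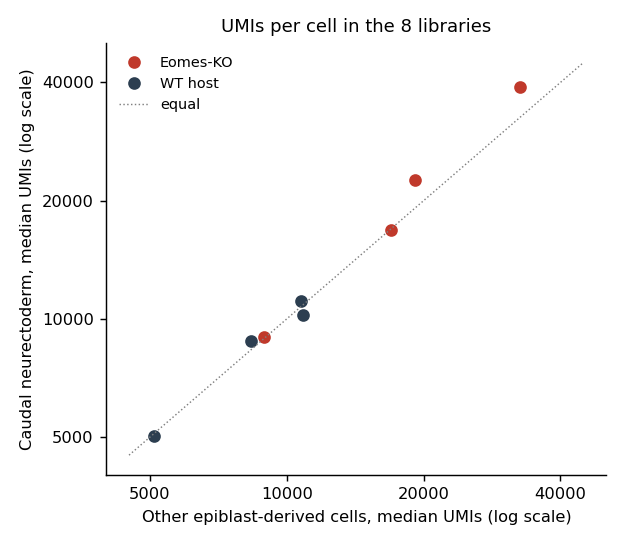
Median UMIs per cell of caudal neurectoderm against the other epiblast-derived cells of the same library, both on log scales; points are the 8 libraries and the dotted line marks equal values. All libraries lie near the line, from 5036 UMIs in a WT host library to 38939 in an Eomes-KO library.

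At least 10000 UMIs were found in 16 of 16, 17 of 18, 14 of 18 and 17 of 47 caudal neurectoderm cells for Eomes-KO and in 4 of 17, 3 of 6, 24 of 46 and 0 of 48 for WT host, in the same order of libraries. The Eomes-KO library of 3465 cells lay within the WT host range. Restricted to such cells, the abundance difference was 1.64 on the log2 scale (edgeR adjusted p = 0.037). The median over types was then -0.32, against -1.95 in the main fit. These medians cover different types, since several depleted types, such as definitive endoderm (-6.62 in the main fit), then fell under 10 cells. The distances of caudal neurectoderm above them, 1.95 and 3.22, are therefore not comparable. Label scores were not recomputed at equal depth, since the table holds no gene counts.

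Genes detected per cell followed the UMIs, with library medians of 2837 to 5864 in Eomes-KO and 2044 to 3234 in WT host (exact permutation adjusted p = 0.29). Mitochondrial UMIs were 1.51% to 1.90% for Eomes-KO and 1.41% to 1.76% for WT host (library medians, exact permutation adjusted p = 0.37). Ribosomal UMIs were 26.6% to 27.7% and 25.2% to 27.1% (exact permutation adjusted p = 0.29). The groups overlapped in all 3.

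The doublet score, which is higher for barcodes that resemble 2 merged cells, was the one quality measure in which the groups stood apart once set against their library. Its medians in caudal neurectoderm were 0.25, 0.25, 0.08 and 0.14 for Eomes-KO and 0.2, 0.255, 0.23 and 0.24 for WT host. The other epiblast-derived cells had 0.29, 0.24, 0.2 and 0.19 in Eomes-KO and 0.17, 0.17, 0.2 and 0.17 in WT host. Caudal neurectoderm was thus 0.05 below its library in the mean of the Eomes-KO libraries and 0.0537 above it in the mean of the WT host libraries. The groups did not overlap (exact permutation p = 0.029, adjusted p = 0.14 over 5 measures). As this was the only measure at 0.029, the smallest possible p, its adjusted p could not pass 0.05. With cells under a doublet score of 0.25 only, the abundance difference was 1.77 on the log2 scale (edgeR adjusted p = 0.014). The part of doublets in the difference in abundance was not tested.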

How the data were processed

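Chimeric embryos of 4 pools were sorted into 8 libraries and sequenced with 10x 3' chemistry. Reads were aligned to mm10 with Cell Ranger 6.0.1 (both named in the submitters' processing notes too). The authors deposited raw total UMI counts per cell, together with genes detected and the mitochondrial and ribosomal percent of UMIs. The deposited doublet score is the authors' own, and cells above 0.5 had been removed. No further doublet calling was done. The authors mapped each library to an atlas of mouse gastrulation and deposited, for each label, a score that is the fraction of the 15 nearest atlas cells carrying it. Coordinates of the authors' embedding and gene expression were not used here.

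Genotype came from the deposited tdTomato status. Library names do not give the pool, so libraries were not paired. Cells were counted per library and type and tested for genotype by the quasi-likelihood test of edgeR 4.0.16 (R 4.3.3). The epiblast-derived cells were the library size, without TMM, rare types under 10 cells were dropped, and p was adjusted by Benjamini-Hochberg (0.05). The SE is the log2 fold change over the root of F. DESeq2 1.42.0 and limma 3.58.1 were alternatives. Other values were compared as library medians or shares, in libraries with at least 5 cells of the type, by two-sided exact permutation of 4 against 4 libraries (70 arrangements) or sign flips in scipy 1.17.1. Ratios to neighbours were log2 with 0.5 added. Labels held by at least 5% of the cells were tested. The p-values measure the spread between these libraries, treated as independent. Each pool gave a library of each genotype, and the tests leave this pairing out. The number of cells, 6 to 48 in a library, sets the precision, and limits for a count of 0 rest on 3 counts. Members, neighbouring types and tests were chosen with earlier results of these data known. No genes were named for their values, since counts of single genes were not used here.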

Additional observations from a re-analysis of the deposited data

Results flagged for a closer look

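In groups of 4 libraries, the gap of the highest or lowest library to its nearest neighbour was compared with the range of the group by Dixon's ratio. This was done for 40 groups, of which chance alone would flag about 1 in 20, and 3 values stood apart. The median original label score of caudal neurectoderm was 0.667 in the Eomes-KO library of 602 cells, with the other 3 Eomes-KO libraries all at 0.533. It was 0.567 in the WT host library of 5819 cells, with the other 3 WT host libraries all at 0.533. The score moves in steps of 1 in 15 nearest atlas cells, so ties are common and a small step is enough to stand apart. The share of caudal neurectoderm at stage E8.0 was 74.5% in the Eomes-KO library of 3465 cells, below the 87.5% to 88.9% of the other 3 Eomes-KO libraries. In that library 7 of the 47 cells were E7.75.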

How the results depend on the processing

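The abundance of caudal neurectoderm, with a log2 fold change of 1.27 (adjusted p = 0.06) in edgeR, was higher in Eomes-KO under every alternative run, from 0.36 with DESeq2 ratio size factors to 1.78 with poscounts. It passed 0.05 with poscounts (1.78), with label scores of at least 0.5 (1.40), at least 10000 UMIs (1.64) and doublet scores under 0.25 (1.77), and with 1 library left out it ran from 0.92 to 1.59, passing without the Eomes-KO library of 3346 cells and without the WT host library of 5819 cells. The median shift of the log2 fold changes of all types was -0.14 with TMM, -0.90 with ratio size factors and 0.61 with poscounts. Limited to stage labels of E8.0 or earlier, a setting added after the data were seen, the direction against spinal cord turned to -0.12 and that against NMPs to -0.88. The value against NMPs rests on 21 Eomes-KO and 8 WT host NMPs. The gap between the score of caudal neurectoderm and other cells was -0.313 with at least 10000 UMIs, where 5 libraries remained. Its exact sign-flip permutation p of 0.062 is the smallest that 5 libraries allow, so it could not pass 0.05. Among differences between genotypes that passed no threshold, signs turned for the extended label score (-0.0167) and the E8.25 share (-1.24) with libraries of at least 10 cells. With 1 library left out the original label score ran from -0.00833 to 0.0361, the extended label score from -0.0167 to 0.05, the E8.25 share from -1.24 to 2.68 percentage points, genes relative to the library from -0.0297 to 0.0331 and the ratio to caudal epiblast from -0.47 to 0.06. Of 251 alternatives over 24 results, 232 kept direction and side of the threshold. Much of this count was fixed in advance. With 1 library left out, an exact permutation test of 3 against 4 libraries cannot go below p = 0.057. No such test between genotypes passed in the main form, so these runs could not change side. No paired analysis was possible because the library names do not give the embryo pool. The extended annotation has no label of this name. At 10000 UMIs, differences of labels, stages and scores between genotypes could not be computed, since 1 WT host library then had enough cells. The cause of these changes was not tested. In libraries of 6 to 18 cells of the type, shares carry wide intervals, and a difference between genotypes that did not pass is not evidence of equal values.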
